A study of Mus musculus with 5 samples.

Results

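Nr2f2, Prox1, Lyve1, Pdpn, Aplnr, Emcn and Stab2 are 7 marker genes of venous and lymphatic endothelium, taken by symbol from lists of genes near DamID peaks of the transcription factors SOX7, FLI1 and ERG. Of these, 6 were among the 12507 genes listed for at least 1 factor. DamID fuses a factor to the bacterial methylase Dam, which marks the adenine of GATC sites close to where the factor sits, and the marked DNA is sequenced and compared with that from Dam alone. There were 5 libraries, 1 per group: SOX7-Dam in the mouse line iSox7::Dam, FLI1-Dam in IFli1::Dam, ERG-Dam in iErg::Dam, and 2 Dam-only controls in iDam, of which 1 served SOX7 and the other served both FLI1 and ERG. All lines are derivatives of Ainv18 embryonic stem cells. In every group FLK1-positive cells were taken from embryoid bodies at day 3, cultured for 1 day in blast medium and sorted for cKIT and TIE2. The factor and the line change together, so that their parts in a difference cannot be told apart. Peak lists of the controls were not analysed here, and no replicate exists, so no test between factors was made.

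The deposited lists gave 6530 genes for SOX7, 10246 for FLI1 and 1579 for ERG, with 974550, 2665309 and 135623 reads in their distinct peak sets. They give peaks by assigned gene, so a peak without an assigned gene would not appear. Distances and overlaps below concern listed peaks only. Reads per kb of peak are not scaled to library size. Densities were therefore read only within a list, as the percentile of a gene among the listed genes. All intervals are at the 95% level. Poisson intervals of reads cover counting error only, since amplified reads carry no molecular identifiers, and binomial intervals of listed shares are taken over genes and treat them as independent. No expression was measured, so the labelled cell type could not be set against the levels of its markers. The sort and endothelial genes Kdr (FLK1), Tek (TIE2), Kit, Cdh5 and Pecam1 were all listed for SOX7 and for FLI1, and 0 of the 5 for ERG (exact binomial upper bound 52.2%). Of all protein-coding gene names, 23.1%, 35.3% and 5.76% were in these lists.

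Veins and arteries take on different identities early in vessel development, and the first lymphatic vessels arise from venous endothelium. NR2F2 (COUP-TFII) is a nuclear receptor that holds venous identity and restrains Notch signalling. PROX1 is the homeodomain factor that sets lymphatic fate, and SOXF factors and NR2F2 act upstream of it in the mouse embryo. The other markers are surface proteins. APLNR is the receptor of the peptide apelin, LYVE1 and STAB2 bind hyaluronan, PDPN is a mucin-type glycoprotein of lymphatic endothelium that binds the platelet receptor CLEC-2, and EMCN (endomucin) is a sialomucin of venous and capillary endothelium. SOX and ETS factors bind short DNA motifs and are known regulators of endothelial genes.

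Promoter windows of 3 of the genes are shown as examples of the outcomes below. Nr2f2 was listed for every factor, Stab2 was the densest of the 7 listed for FLI1 alone, and Emcn was in no list. Each window runs from 250 bases before to 50 after the RefSeq start of the gene and is written 5′ to 3′ on the gene's strand. Capitals mark GATC, the site that Dam methylates, the ETS core GGAA or TTCC, and the SOX core ACAAT or ATTGT. The positions are chr7:70366697-70366996 (minus strand), chr10:87007893-87008192 (minus strand) and chr3:137340828-137341127 (plus strand) on GRCm38.p6.
Nr2f2: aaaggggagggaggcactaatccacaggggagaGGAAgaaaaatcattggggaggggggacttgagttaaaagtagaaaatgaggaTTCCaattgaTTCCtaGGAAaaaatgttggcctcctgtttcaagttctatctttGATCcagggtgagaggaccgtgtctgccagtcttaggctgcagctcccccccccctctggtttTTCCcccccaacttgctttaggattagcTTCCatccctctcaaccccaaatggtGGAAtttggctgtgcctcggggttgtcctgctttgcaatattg
Stab2: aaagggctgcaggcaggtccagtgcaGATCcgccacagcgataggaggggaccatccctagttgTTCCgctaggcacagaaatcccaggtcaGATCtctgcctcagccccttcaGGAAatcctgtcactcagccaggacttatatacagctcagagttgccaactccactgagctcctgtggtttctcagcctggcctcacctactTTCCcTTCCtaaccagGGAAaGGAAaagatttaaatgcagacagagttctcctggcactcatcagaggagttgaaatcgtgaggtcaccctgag
Emcn: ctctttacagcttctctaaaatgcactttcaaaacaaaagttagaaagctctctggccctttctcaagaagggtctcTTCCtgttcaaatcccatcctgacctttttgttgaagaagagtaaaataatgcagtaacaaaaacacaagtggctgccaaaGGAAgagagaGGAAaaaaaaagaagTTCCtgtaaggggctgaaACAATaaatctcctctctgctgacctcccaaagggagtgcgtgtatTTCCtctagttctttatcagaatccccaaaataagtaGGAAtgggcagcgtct
The window of Nr2f2 holds 1 GATC and 7 ETS cores, that of Stab2 2 GATC and 6 ETS cores, and that of Emcn no GATC, 6 ETS cores and 1 SOX core. On both strands, GATC is present in 48.0% of the 32851 promoter windows of the same length, GGAA in 96.0% and ACAAT in 31.0%. The longer ETS form CNGGAAG, which contains GGAA, is found in the Emcn window, in both Prox1 windows and in 31.9% of all windows. The longer SOX form AACAAT, which contains ACAAT, is also in the Emcn window and in 10.7% of all. Of the 7 genes 5 had an entry in the table, Lyve1 and Aplnr excepted. Among the other entries, Pdpn has 1 GATC, 3 ETS cores and 1 SOX core, and Prox1 has 2 windows with 5 and 2 ETS cores and no SOX core. The peaks below are on mm9, a different build, so whether a peak covers such a window was not determined. These letters describe the windows and are not binding sites.

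The first question was which of the genes carried a peak. FLI1 had peaks at 6 of the 7 (85.7%, exact binomial interval 42.1 to 99.6), where its list held 35.3% of 21900 protein-coding gene names. SOX7 had peaks at 3 (42.9%, 9.90 to 81.6), with 23.1% of names in its list. ERG had a peak at 1 (14.3%, 0.361 to 57.9), with 5.76% of names in its list. The 7 genes were chosen with earlier results of these data known, so these shares are given as a description. The patterns were nested. Nr2f2 was listed for all 3 factors, as were 3.36% of all names. Lyve1 and Aplnr were listed for SOX7 and FLI1 without ERG, a pattern of 13.3% of names. Prox1, Pdpn and Stab2 were listed for FLI1 alone, a pattern of 17.3% of names. Emcn was in no list, like 57.5% of names. No member was listed for SOX7 or ERG without FLI1. Such patterns made up 6.14% of all names for SOX7 alone, 0.749% for ERG alone and 0.297% for both. SOX7 peaks were assigned to 5050 names, of which 1344 were listed for SOX7 alone and 65 for SOX7 and ERG without FLI1. ERG peaks were assigned to 1262 names, 164 of them listed for ERG alone. The nesting rests on 3 markers listed for SOX7 and 1 for ERG, and was not tested against other listed genes. Each listed member had the same Ensembl identifier and the biotype protein-coding in every list that held it.

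**Figure D1:**
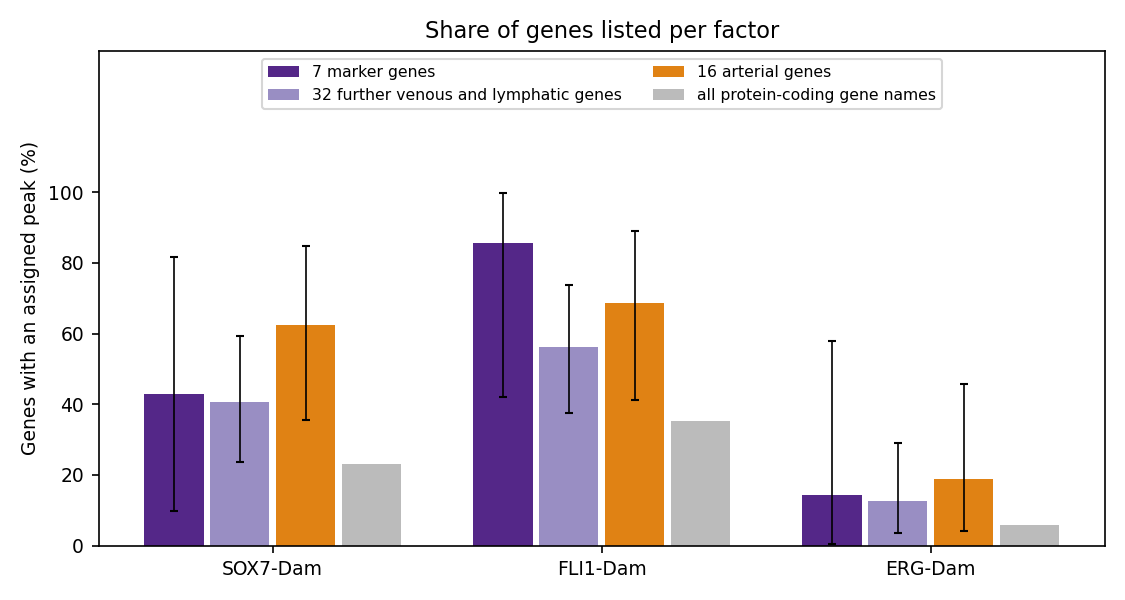
Share of genes with at least 1 assigned peak (vertical axis, percent) for each factor library (horizontal axis). Bars give the 7 marker genes, 32 further venous and lymphatic genes, 16 arterial genes and all 21900 protein-coding names, and error bars are exact binomial 95% intervals over genes. The 7 marker genes stand at 85.7% for FLI1 against 35.3% of all names, with a wide interval.

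Of the transcription factor genes, Nr2f2 (ENSMUSG00000030551) was the only member at which peaks of all 3 factors met. SOX7-Dam had 1 peak on chromosome 7 from 77477348 to 77478198 (mm9), with 66 reads (Poisson interval 51.0 to 84.0), or 77.6 reads per kb (60.0 to 98.7), percentile 81.0 of its list. FLI1-Dam had 3 peaks, at 77471053 to 77472953, 77477203 to 77478603 and 77514553 to 77515653, with 360 reads in all (324 to 399), a mean of 81.8 reads per kb (73.5 to 90.7) and percentile 64.3. ERG-Dam had 1 peak at 77476745 to 77477495 with 11 reads (5.49 to 19.7) and 14.6 reads per kb (7.31 to 26.2), percentile 5.8. The gene thus stood above the median of the SOX7 and FLI1 lists, at 1.59 and 1.19 times their medians, and at 0.463 times the median of the ERG list. By read count it was below the median of the SOX7 list, with 66 reads against a median of 95 (percentile 34.1), its SOX7 peak being only 851 bp wide.

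The SOX7 peak of Nr2f2 lay wholly inside the middle FLI1 peak and took up 60.7% of it. The ERG peak reached into both from the side of lower coordinates. It shared 293 bp with the FLI1 peak and 148 bp with the SOX7 peak, which are 39.0% and 19.7% of its own width. All 3 peaks had 148 bp in common, from 77477348 to 77477495, within a merged region of 1859 bp. Of the 876 genes listed for all 3 factors, 45.9% had a base common to a peak of each. The outer FLI1 peaks met no peak of another factor. They lay 4.25 kb and 35.95 kb from the middle one. Having 3 or more peaks was shared by 16.1% of FLI1 genes. The ERG peak was among the weakest of its list. Its 11 reads set it among the 15 of 1579 ERG genes with the fewest reads, where the smallest count was 10.

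SOX7 and ERG had no other listed peak close to Nr2f2. The next SOX7 peak in the list was 978 kb away, farther than the nearest neighbour of 99.2% of SOX7 peaks, for which the median gap was 27.4 kb. The next ERG peak was 1957 kb away, against a median gap of 276 kb. Neither neighbouring protein-coding gene in the RefSeq order of GRCm38.p6, Arrdc4 nor Gm44812, was found by name in any list. A gene under another name in the deposited lists, or absent from the gene set behind them, would be missed.

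Prox1 (ENSMUSG00000010175), the other transcription factor gene, carried 1 FLI1 peak and no SOX7 or ERG peak. The FLI1 peak, on chromosome 1 from 191945807 to 191947357, had 69 reads (53.7 to 87.3) and 44.5 reads per kb (34.6 to 56.3), percentile 15.6 of the FLI1 list and 0.646 times its median. This was the lowest density of the 6 listed members. The nearest SOX7 peak, assigned to the neighbouring gene Smyd2, was 193 kb away, and the nearest ERG peak, assigned to Ptpn14, was 388 kb away. Missing from a list means that no peak was assigned, not that reads were absent.

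**Figure D2:**
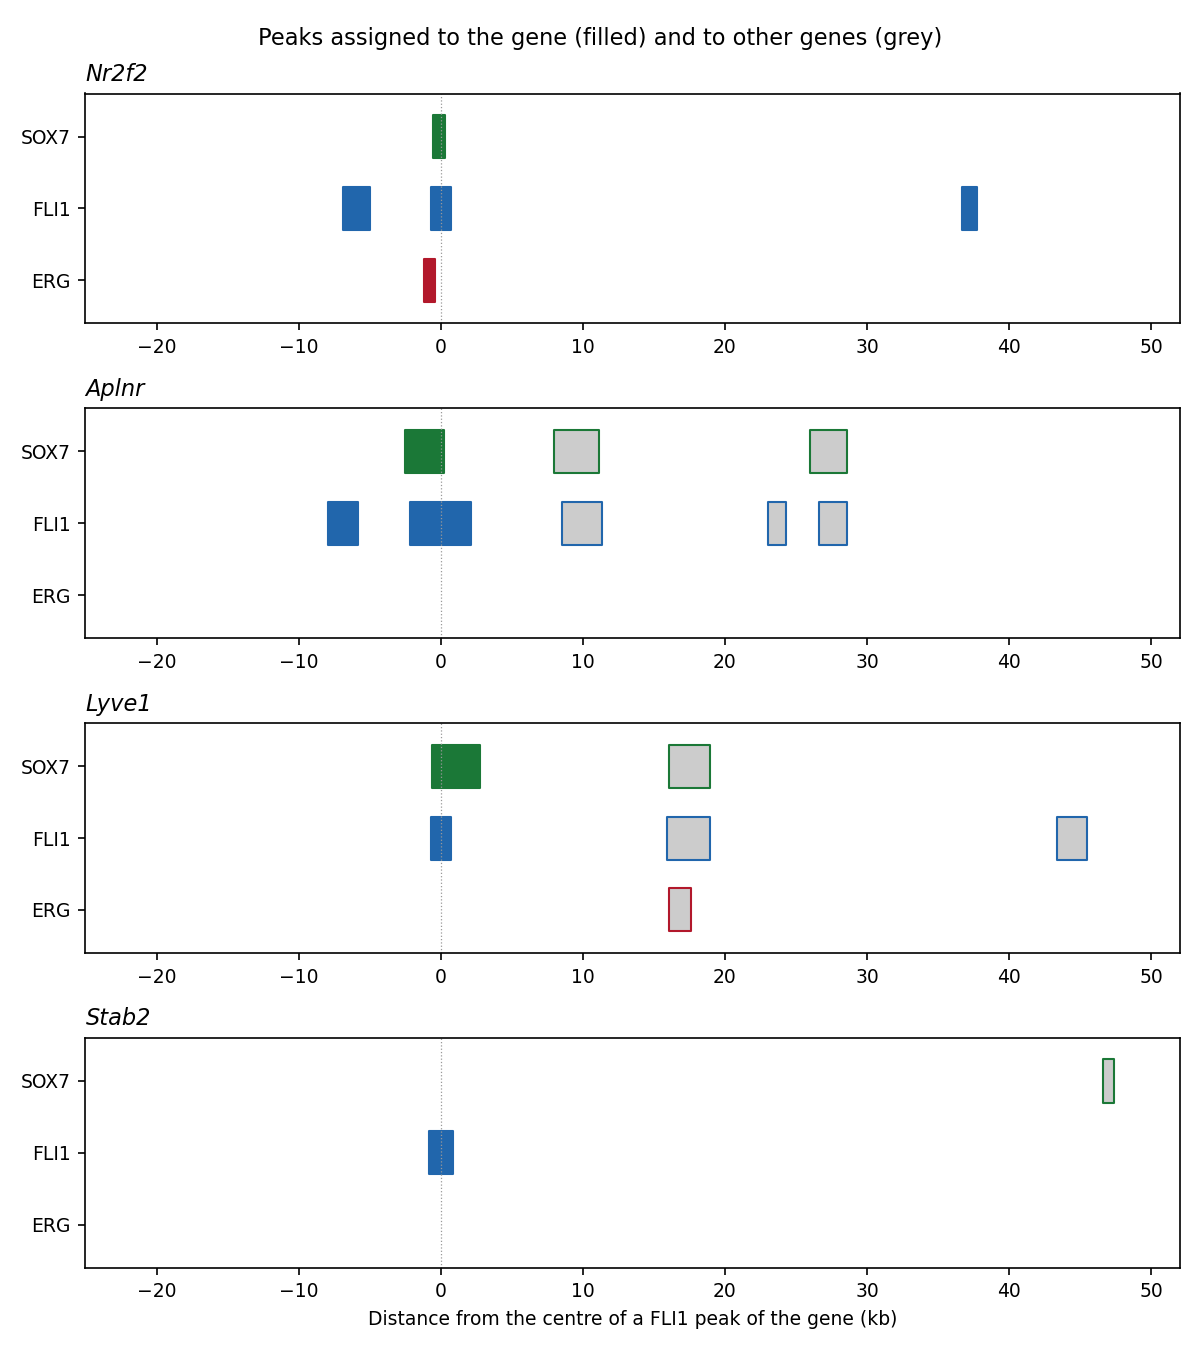
Peaks of SOX7-Dam, FLI1-Dam and ERG-Dam (rows) around Nr2f2, Aplnr, Lyve1 and Stab2. The horizontal axis is the distance in kb from the centre of a FLI1 peak of the gene (the middle peak at Nr2f2, the wider one at Aplnr), and filled bars are peaks assigned to the gene while grey bars are peaks assigned to other genes within 50 kb of a peak of the gene. Peaks of all 3 factors meet at Nr2f2 and, beside Lyve1, at a grey set assigned to Mrvi1.

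Among the receptor genes, Aplnr (ENSMUSG00000044338) had the highest FLI1 density of the 7. FLI1-Dam had 2 peaks there on chromosome 2, at 84972348 to 84974498 and 84978148 to 84982448, with 919 reads (861 to 980) and a mean of 142 reads per kb (133 to 152). This is percentile 92.2 of that list and 2.07 times its median. SOX7-Dam had 1 peak at 84977799 to 84980499 with 186 reads (160 to 215) and 68.9 reads per kb (59.3 to 79.5), percentile 74.7.

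The SOX7 peak at Aplnr and the second FLI1 peak shared 2352 bp, which are 87.1% of the former and 54.7% of the latter. Both were wide for their lists. The FLI1 peak of 4301 bp stood at percentile 96.8 of FLI1 peak widths and the SOX7 peak of 2701 bp at percentile 89.2 of SOX7 widths. Further peaks of both factors followed within 50 kb on the side of higher coordinates. SOX7 and FLI1 each had a peak assigned to the pseudogene Gm13712, the SOX7 one starting 5.85 kb after the end of the second Aplnr peak of FLI1, and more assigned to Gm13713 and Lrrc55 together. No listed ERG peak was near, the closest being 499 kb from the first FLI1 peak and assigned to Ctnnd1.

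Lyve1 (ENSMUSG00000030787), a hyaluronan receptor of lymphatic endothelium, was also listed for SOX7 and FLI1. The SOX7 peak on chromosome 7 from 118002748 to 118006098 had 180 reads (155 to 208) and 53.7 reads per kb (46.2 to 62.2), percentile 57.3. The FLI1 peak from 118002653 to 118004053 had 153 reads (130 to 179) and 109 reads per kb (92.6 to 128), percentile 82.9. The peaks began close together, and their common 1306 bp made up 93.2% of the FLI1 peak and 39.0% of the wider SOX7 peak. At 3351 bp the SOX7 peak was 2.31 times the median width of its list.

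No ERG peak was assigned to Lyve1, but 1 lay 13.3 kb beyond the end of its SOX7 peak, assigned to the neighbouring gene Mrvi1. There, on chromosome 7, ERG (118019445 to 118020995), SOX7 (118019448 to 118022298) and FLI1 (118019303 to 118022303) peaks had 1548 bp in common. The percentile of Mrvi1 was 66.9 for SOX7, 43.8 for FLI1 and 36.6 for ERG. Whether the assigned gene is the one these peaks act on was not measured.

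Stab2 (ENSMUSG00000035459), a scavenger receptor of sinusoidal endothelium that binds hyaluronan, was listed for FLI1 alone. Its peak on chromosome 10 from 86452170 to 86453870 had 204 reads (177 to 234) and 120 reads per kb (104 to 138), percentile 86.8. The same peak was also assigned to the noncoding gene Gm16271, as happened with 6.28% of FLI1 peaks, and it was the only member peak with a second gene. Gm16271 in turn had a SOX7 peak, 45.7 kb away, at percentile 86.0 of the SOX7 list. That SOX7 peak was not assigned to Stab2. The nearest ERG peak was 1603 kb away.

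Pdpn (ENSMUSG00000028583) carried 1 FLI1 peak on chromosome 4 from 142875541 to 142876591, with 51 reads (38.0 to 67.1) and 48.5 reads per kb (36.1 to 63.8), percentile 21.0. It was a narrow peak, at percentile 9.84 of FLI1 widths. The nearest SOX7 peak was 126 kb away, assigned to Pramef8, and the nearest ERG peak 1152 kb away. Prox1, Pdpn and Stab2, the genes listed for FLI1 alone, all had isolated peaks. Their nearest other FLI1 peak was 118, 140 and 127 kb away, against a median of 21.2 kb for FLI1 peaks, and 89.3%, 91.6% and 90.3% of FLI1 peaks had a closer neighbour. Each of these genes had 1 FLI1 peak, while the median also covers peaks of genes with several.

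Emcn had no row in any list, also under the older symbols of the RefSeq gene table. The protein-coding genes on either side of it in the gene order of that table (GRCm38.p6) are Ppp3ca and Gm4861. Ppp3ca, which encodes a catalytic subunit of calcineurin, had 6 SOX7 peaks, 8 FLI1 peaks and 1 ERG peak, the last with 69 reads at percentile 89.5 of the ERG list. Gm4861 had 1 SOX7 peak with 74 reads. Between the last Ppp3ca peak and the Gm4861 peak lay 613 kb of chromosome 3, from 136596346 to 137209496. FLI1 and ERG had 0 listed peaks in it, and SOX7 had 1, assigned to a U6 gene at 136713146 to 136714496 with 56 reads. Peaks without an assigned gene are not listed, so whether this stretch held other binding was not determined. The position of Emcn itself on mm9 was not determined.

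**Figure D3:**
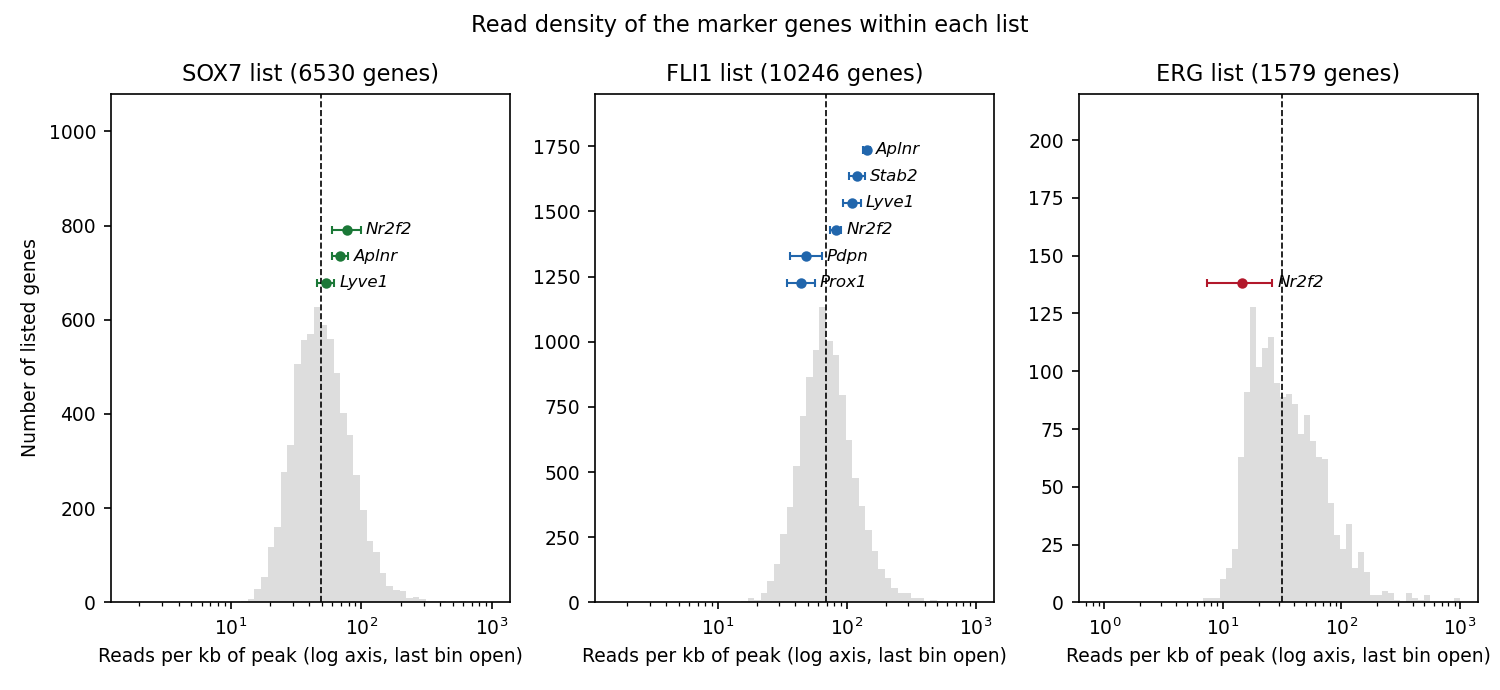
Reads per kb of peak (horizontal, log axis) of all genes in each list as grey histograms (vertical axis, number of genes; genes above 1000 reads per kb fall in the last bin), with the listed marker genes as points above, placed at arbitrary heights, and exact Poisson 95% intervals. The dashed line is the list median. Every listed marker gene lies above it for SOX7, 4 of 6 lie above it for FLI1, and Nr2f2 lies below it for ERG. For SOX7 the interval of Lyve1, 46.2 to 62.2, spans the list median of 48.8.

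Within the FLI1 list the order of the members by reads per kb was Aplnr, Stab2, Lyve1, Nr2f2, Pdpn and Prox1, from 142 down to 44.5 reads per kb. The counting intervals of neighbours in this order overlapped for Aplnr and Stab2, for Stab2 and Lyve1, and for Pdpn and Prox1. They did not overlap between Lyve1 and Nr2f2, which differed 1.34-fold, or between Nr2f2 and Pdpn, which differed 1.68-fold. In the SOX7 list the order was Nr2f2, Aplnr and Lyve1, and the intervals of neighbours overlapped. Read count gave other orders. By it Nr2f2, at percentile 34.1, came after Aplnr (75.8) and Lyve1 (74.6) in the SOX7 list, and in the FLI1 list, at 78.8, it came before Stab2 (58.3) and Lyve1 (45.9). The median percentile of the listed members was 74.7 for SOX7 (lowest 57.3, highest 81.0) and 73.6 for FLI1 (lowest 15.6, highest 92.2), where the median of all listed genes is 50 by construction. The orders are descriptions of these libraries, since there was 1 per factor.

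The next question was whether the factors marked the same DNA at these genes. All 3 SOX7 peaks of the members shared 1 bp or more with a FLI1 peak, compared with 35.2% of all SOX7 peaks, and 1 of the 3 met an ERG peak, compared with 5.13%. Among the 4511 genes listed for both factors, 64.2% had at least 1 overlapping pair of their own peaks, and Nr2f2, Lyve1 and Aplnr all did. Of the 9 FLI1 peaks of the members 3 overlapped a SOX7 peak, against 20.9% of all FLI1 peaks, and 1 an ERG peak, against 4.63%. The single ERG peak overlapped both other factors, as 49.3% of ERG peaks did for FLI1 and 32.4% for SOX7. Among genes listed for ERG and FLI1 together, 65.1% had an overlapping pair of their own peaks, and among those of ERG and SOX7 55.3%. Each overlapping peak was assigned to the same member gene as its partner. The 6 FLI1 peaks without a SOX7 partner were the outer 2 at Nr2f2, the first at Aplnr and the peaks of Prox1, Pdpn and Stab2. FLI1 and ERG peaks were called against the same Dam-only library, and the part of that shared control in their overlap was not tested.

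A further 32 genes of venous and lymphatic development were described in the same way. FLI1 listed 18 of them (56.2%, interval 37.7 to 73.6). SOX7 listed 13 (40.6%, interval 23.7 to 59.4), and ERG listed 4 (12.5%, interval 3.51 to 29.0). The shares over all names were 35.3%, 23.1% and 5.76%, in the same order. The intervals overlapped those of the 7 markers for each factor. Their median percentiles were 43.3 in the SOX7 list and 52.9 in the FLI1 list, compared with 74.7 and 73.6 for the 7 markers, and no test was made of this difference. Calcrl, the adrenomedullin receptor, was the only one of the 32 listed for all 3 factors, as Nr2f2 was. Its FLI1 peak had 175 reads (percentile 69.6), its SOX7 peak 103 reads (percentile 36.1) and its ERG peak 35 reads (percentile 52.6). The pattern of Lyve1 and Aplnr, SOX7 and FLI1 without ERG, was found in 8 of the 32 genes (13.3% of all names), that of Prox1, Pdpn and Stab2 in 6 (17.3%), and that of Emcn in 10 (57.5%). Listing for SOX7 alone, which no marker had, was found in 4 (6.14%).

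The densest of the 32 genes differed between the lists. For FLI1 they were Ephb4, the ephrin receptor of venous endothelium, at percentile 95.5 with 239 reads, Selp, which encodes P-selectin, at 82.1, and Hhex, a homeobox factor, at 72.3. For SOX7 they were Gata2, a factor needed for lymphatic valves, at percentile 79.5 with 135 reads, the peptide hormone gene Adm at 75.7 and the mannose receptor gene Mrc1 at 71.1. For ERG they were Calcrl, the retinoic acid hydroxylase gene Cyp26b1 at percentile 38.1 and Ephb4 at 36.0. Ephb4, Hhex and Cyp26b1 were listed for FLI1 and ERG without SOX7, a pattern of 1.36% of all names that none of the 7 markers had. Chosen after their values were seen, Sox18, which acts upstream of Prox1 in the mouse, was listed for FLI1 alone at percentile 18.4, close to Prox1, and the lymphatic receptor gene Flt4 was in no list.

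**Figure D4:**
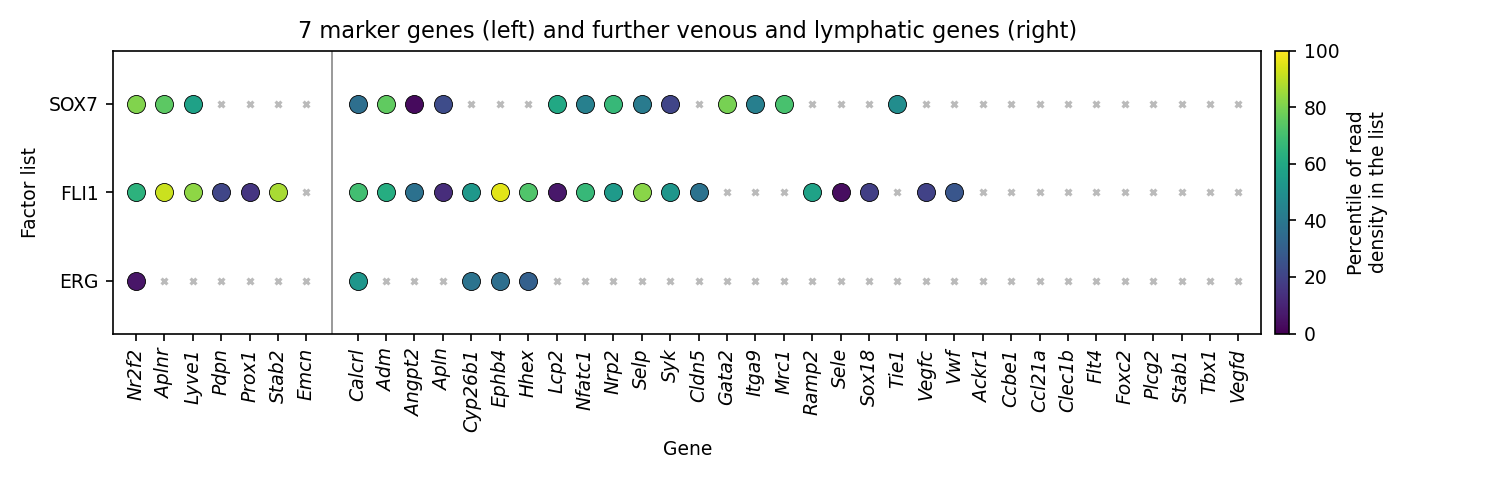
Percentile of reads per kb within each factor's list (colour, 0 to 100) for the 7 marker genes to the left of the line and the 32 further genes to the right (horizontal axis), in the lists of SOX7, FLI1 and ERG (vertical axis). Crosses mark genes without an assigned peak. Nr2f2 and Calcrl are the genes with a filled point in each of the 3 rows.

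Of 16 arterial genes, set beside the markers as counts, FLI1 listed 11 (68.8%, interval 41.3 to 89.0). SOX7 listed 10 (62.5%, interval 35.4 to 84.8), and ERG listed 3 (18.8%, interval 4.05 to 45.6), where the lists held 35.3%, 23.1% and 5.76% of all names. The arterial shares, like those of the 7 markers, were above the shares of all names for each factor. For ERG the share of the 7 markers, 14.3%, rests on Nr2f2 alone, and the intervals of both gene sets held the share of all names. For SOX7 the interval of the 7 markers did too. Both gene sets were chosen with earlier results of these data known, so the shares and their intervals are descriptions and not tests. The arterial intervals overlapped those of the 7 markers for each factor. Overlap of separate intervals cannot decide whether listing differs between the gene sets, and no test of such a difference was made. The median percentiles of the listed arterial genes were 51.0 for SOX7, 62.2 for FLI1 and 58.5 for ERG.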

How the data were processed

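Endothelial precursor cells from mouse embryonic stem cells gave 5 DamID libraries of single 60 bp reads, made from 50 ng of DNA with 10 cycles of amplification, per the labels' protocols. Per the labels, peaks were called against the Dam-only library of each factor. Per the submitters' processing notes the build is mm9. For the aligner, the peak caller, its threshold and the assignment of peaks to genes, the tools and rules are not stated in the sources used. The deposited read count is a whole number per gene, summed over its peaks. The deposited signal, reads per kb, equals that count over the summed peak length within 0.01 in all listed genes, so it is not scaled to depth or control. At genes with several peaks it is a mean.

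Genes were matched by symbol, older symbols included (RefSeq table of GRCm38.p6, names and gene order only, which matched 96.7%, 95.7% and 95.8% of protein-coding rows of the SOX7, FLI1 and ERG lists). Any of the 21900 names absent from the gene set behind the lists would lower the shares of all names. Promoter sequences are from RefSeq. Percentiles are mid-ranks. Intervals are exact Poisson and Clopper-Pearson. Overlap needed 1 bp. The code for ranks was checked on made-up values with known answers. That for overlaps was checked on made-up intervals and on the listed peaks, moved off the chromosomes or with copies planted among them. The marker genes, gene lists and rules were chosen with earlier results of these data known. Named are the 7 markers, genes beside them, and of the 32 further genes those listed for all 3 factors or among the densest 3 per list. Others of the 32 are named as chosen after their values were seen. Python 3.11.15, pandas 2.3.3, numpy 2.4.6, scipy 1.17.1 and matplotlib 3.10.9 were used.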

Additional observations from a re-analysis of the deposited data

How the results depend on the processing

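Stricter lists changed the counts of listed markers. In the denser 25% of each list SOX7 kept 1 of 3 and FLI1 3 of 6. ERG had 0 in both the denser 50% and the denser 25%. Read count in place of reads per kb moved 7 percentiles outside their counting intervals: Nr2f2 to 34.1 in the SOX7 list and 78.8 in the FLI1 list, Lyve1 to 74.6 and 45.9, and, in the FLI1 list, Pdpn to 5.13, Aplnr to 96.2 and Stab2 to 58.3. By read count Nr2f2 thus went from first to last of the 3 markers in the SOX7 list and passed Stab2 and Lyve1 in the FLI1 list. The count grows with peak width and number, which reads per kb divides out. With at least 50% of the shorter peak required, overlaps of ERG with SOX7 and with FLI1 at the markers were 0, counted from either side. With the denser 50% of the ERG list they were 0 for SOX7 and FLI1 peaks. The other 47 of 64 alternative values were within 1.5 times the count or within the counting interval. These include all 3 overlaps of SOX7 with FLI1 peaks, which were 3 under the 50% rule. They also include the 4 of 6 FLI1 markers in the denser 50% of its list, which is at the limit of 1.5 times. Some of the 47 had little room to move. Ensembl identifiers were taken from the symbol matches, and allowing a distance of 1000 bp could only keep or add overlaps. No paired analysis was possible because each group has 1 library. The 11 ERG reads at Nr2f2 limit what can be said of its order there.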

Other observations

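Within the 32 further genes, small groups were picked after their values were seen, with no test. Of all protein-coding gene names 13.3% were listed for SOX7 and FLI1 without ERG, 17.3% for FLI1 alone and 57.5% in no list. Of the adrenomedullin pathway, which acts in lymphatic growth, the peptide gene Adm was listed for SOX7 with 84 reads and for FLI1 with 266, at percentiles 75.7 and 62.1. Its receptor gene Calcrl was listed for all 3 factors, and the receptor partner gene Ramp2 for FLI1 alone, with 83 reads at percentile 57.7. Of the VEGF-C pathway, which drives lymphatic sprouting, the ligand gene Vegfc had 3 FLI1 peaks with 174 reads at percentile 19.8 and no SOX7 or ERG peak. The coreceptor gene Nrp2 held 414 reads in 6 SOX7 peaks and 852 in 5 FLI1 peaks, while Flt4, Vegfd and Ccbe1 were in no list. Of the platelet pathway that PDPN engages, Lcp2 and Syk were listed for SOX7 and FLI1, and Clec1b and Plcg2 were in no list.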
